A study of Rattus norvegicus with 12 samples.

Results

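Rat cardiac fibroblasts depleted of Yap were compared directly with fibroblasts depleted of its paralog Wwtr1 (also called Taz), to find which genes differ between the loss of each protein. The comparison rested on the 3 libraries with Yap siRNA and the 3 with Wwtr1 siRNA, 6 of the 12 libraries of the series. The 11871 of 12271 listed genes whose normalized count averaged 10 or more over the 12 libraries were tested. The other libraries, 3 with negative siRNA and 3 with both siRNAs (the double knockdown), helped to estimate the spread and are given beside the comparison. Double knockdown replicate 3 differed from the rest of its group more than any other library did, and it enters that estimate.

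Per the labels, the cells came from heart ventricles of 2-day-old (P2) Sprague Dawley rats, with no genetic change named, and were cultured in medium with 15% serum. Each target was met with a pair of commercial siRNAs at 25 nM each, negative cells received a pair of universal negative control siRNAs, and RNA was collected 48 hours after transfection. The siRNA field of the double knockdown names only the Wwtr1 siRNAs, and the groups here follow the sample titles. The design text speaks of myocytes, whereas title, labels and methods speak of fibroblasts. The methods also give a lower share of serum and count the time to collection from a change of medium after transfection, so these conditions differ between the sources. The study states that replicates came from separate litters, so each library holds cells pooled over animals. The deposited values are gene counts divided by a size factor for each library, called normalized counts here, and recovered totals were 33.9 to 36.3 M reads in the 6 libraries. Values of 3 libraries are listed in the order of replicates 1, 2 and 3, differences are Yap siRNA minus Wwtr1 siRNA on the log2(normalized count + 1) scale, and "passed" means a limma adjusted p under 0.05 over all genes tested. Normalized counts are not per length, so levels are compared between groups and never between genes.

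Yap and Wwtr1 are coactivators of the Hippo pathway. When the kinases of that pathway are inactive, both proteins enter the nucleus and bind TEAD factors on DNA, which switch on genes for growth, adhesion and matrix. When the Lats kinases are active, both are phosphorylated and held in the cytoplasm. In heart fibroblasts they are known for their part in the myofibroblast state, in which the cells contract and lay down scar.

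The targeted genes were examined first, and each target was low with its own siRNA. Yap1 was 532, 576 and 625 normalized counts with Yap siRNA and 3169, 3151 and 3184 with Wwtr1 siRNA (log2 difference -2.46, SE 0.22, limma adjusted p 0.00026). Wwtr1 was 2134, 2499.5 and 2374 with Yap siRNA and 524, 550.0 and 637 with Wwtr1 siRNA (log2 difference 2.03, SE 0.13, limma adjusted p 2.94e-05). With negative siRNA, Yap1 was 3042, 3776 and 2984 and Wwtr1 was 2364, 2565 and 2280.0. Each gene with the siRNA against its paralog differed from negative siRNA by a log2 value of -0.04 (limma adjusted p 0.944 for Yap1 and 0.902 for Wwtr1).

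**Figure D1:**
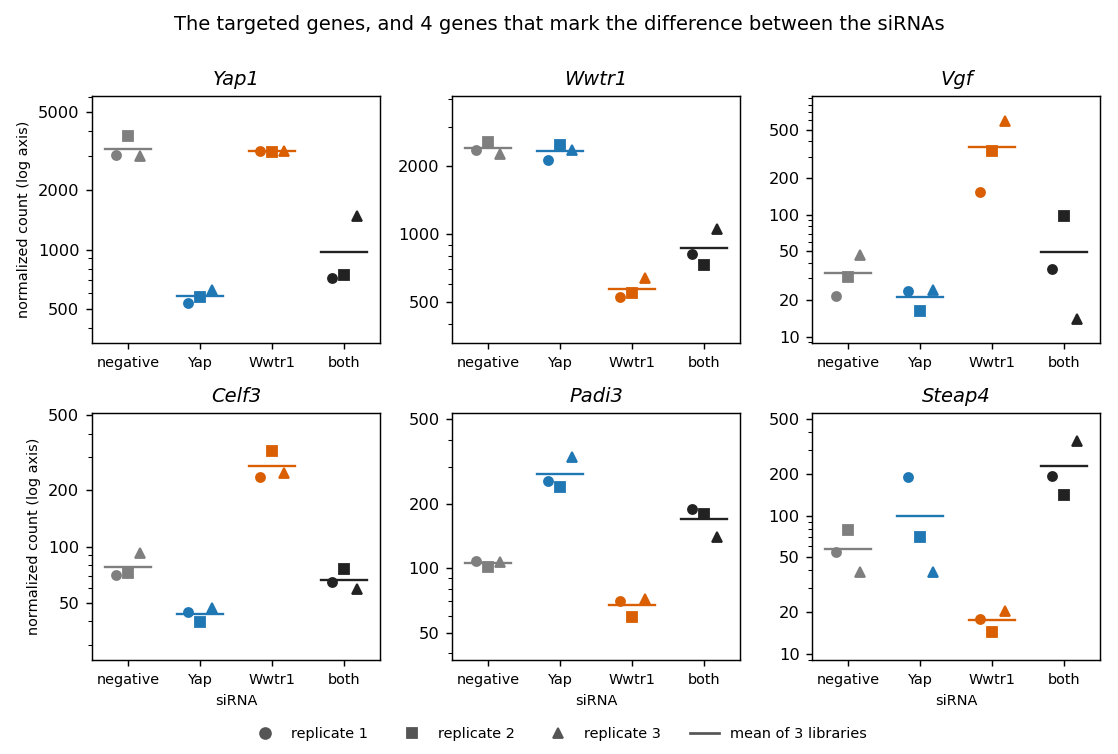
Normalized counts (vertical log axis) of Yap1, Wwtr1, Vgf, Celf3, Padi3 and Steap4 in the 12 libraries by siRNA, with 1 point for each library, a shape for each replicate number and a bar at the mean of 3. Yap1 was low where Yap siRNA was given and Wwtr1 where Wwtr1 siRNA was given, and Vgf and Celf3 were highest with Wwtr1 siRNA alone.

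Between the siRNAs, 1044 genes passed (8.79% of genes tested), 543 higher (4.57%) and 501 lower (4.22%) with Yap siRNA. The counts of each gene list are read against these shares. Past the threshold and over 2-fold there were 110 genes (0.927%), 45 higher and 65 lower. The median difference over all genes tested was -0.0038. The 3 libraries of each group did not overlap in 31.9% of genes tested, and in 1043 of the 1044 genes that passed. With replicate number as a block and without the double knockdown, 2680 genes passed (22.6%), 1376 higher (11.6%) and 1304 lower (11%), among them all of the 1044. Counts of a gene list with the block are read against these block shares. Against the same negative libraries, 570 genes passed with Yap siRNA (4.8%), 3.02% higher and 1.78% lower, and 1064 with Wwtr1 siRNA (8.96%), 594 of them higher (5%) and 3.96% lower. Without 1 library of either group the count was 669, 434 and 496 for Wwtr1 siRNA replicates 1 to 3 and 513, 575 and 748 for Yap siRNA replicates 1 to 3, so the counts of a gene list that moved by over 1.5 times when 1 library was left out are given beside it or follow from the lost call of a member named there.

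**Figure D2:**
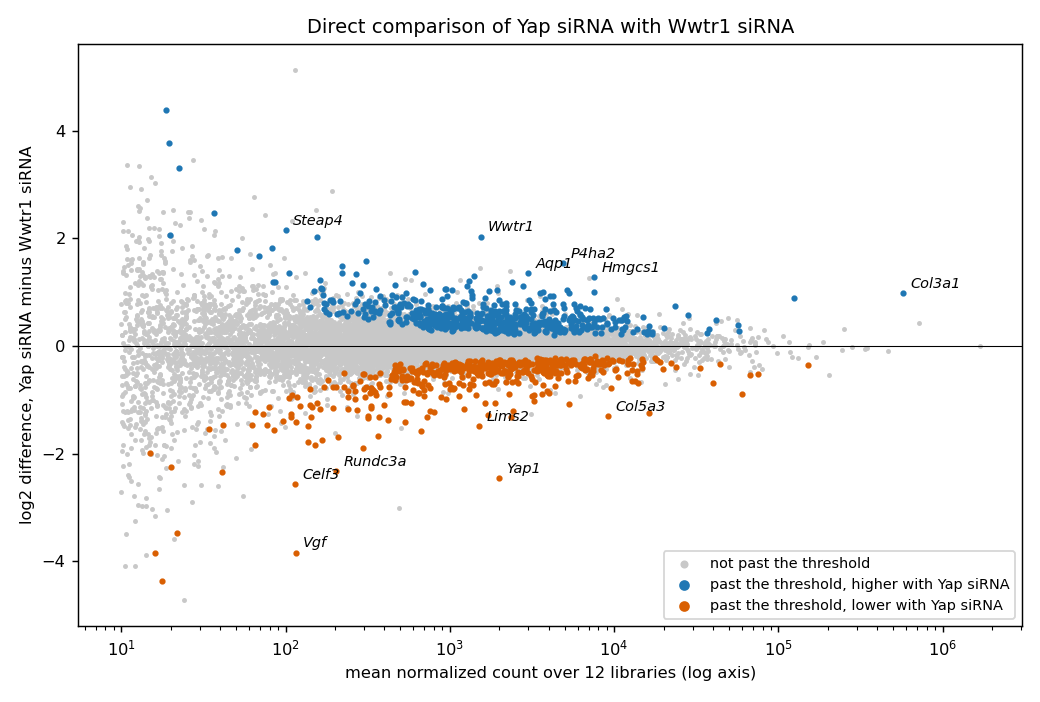
Log2 difference of Yap siRNA minus Wwtr1 siRNA (vertical) against mean normalized count over 12 libraries (horizontal log axis) for the 11871 genes tested. Blue and orange points are the 543 genes that passed higher and the 501 that passed lower with Yap siRNA, with names beside 12 genes, among them Vgf at -3.84 and Wwtr1 at 2.03.

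Neuronal and secretory genes were among those higher with Wwtr1 siRNA. Vgf, which encodes a secreted neuropeptide precursor, was 23.6, 16.1 and 24.1 normalized counts with Yap siRNA and 154, 334 and 587 with Wwtr1 siRNA. Every Wwtr1 siRNA library was above every Yap siRNA library, although the Wwtr1 siRNA libraries themselves ranged widely. The mean was 16.9-fold higher with Wwtr1 siRNA (log2 difference -3.84, SE 0.63, limma adjusted p 0.00439). With negative siRNA Vgf was 21.5, 31.0 and 46.5, and with both siRNAs it was 35.8, 97.0 and 14.0, so that only the libraries with Wwtr1 siRNA alone were over 100.

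Celf3, an RNA-binding splicing factor of neurons, was 45.1, 39.6 and 47.1 with Yap siRNA and 234, 321 and 247 with Wwtr1 siRNA, a 6.08-fold difference of means (log2 difference -2.57, SE 0.21, limma adjusted p 0.000136). Its levels with negative siRNA (70.8, 72.0 and 92.0) and with both siRNAs (64.6, 76.1 and 59.7) lay between the single knockdowns and overlapped neither. From negative siRNA, Celf3 differed by 1.76 with Wwtr1 siRNA (limma adjusted p 0.000811) and by -0.81 with Yap siRNA (limma adjusted p 0.0496).

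Neuronal genes were described from a list of 49 genes known as targets of the repressor Rest, which holds neuronal genes silent in other cells, together with Rest and its partners. Of these, 15 were not listed, 3 were under the filter and 31 were tested. Among the 31, 7 passed lower and 2 passed higher with Yap siRNA (12 and 2 with the block), where 4.22% and 4.57% of all genes tested passed (11% and 11.6% with the block), and the median difference was -0.56. Members Vgf, Celf3, Rundc3a, Unc13a and Scn3b were named for their differences and not from the list. The list itself was chosen with earlier results of these data known. The counts and the median are therefore not independent of those differences. The median was 0.03 for Yap siRNA and 0.79 for Wwtr1 siRNA when each was set against the same negative libraries. By replicate number, the medians of Yap siRNA minus Wwtr1 siRNA were -0.39, -0.37 and -1.08. Leaving out 1 library gave 5 to 9 members lower and medians of -0.61 to -0.29, the last without Wwtr1 siRNA replicate 3. None passed higher without Wwtr1 siRNA replicates 1 or 2 or Yap siRNA replicates 1 or 2, and 1 did without any negative siRNA library, Wwtr1 siRNA replicate 3, Yap siRNA replicate 3 or double knockdown replicate 2.

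Members of vesicle release and excitability were among those that passed. Rundc3a, an effector of small GTPases in neurons, was 94.3, 112 and 57.6 with Yap siRNA and 349.5, 455 and 501 with Wwtr1 siRNA (log2 difference -2.33, SE 0.34, limma adjusted p 0.00246). Unc13a, which primes synaptic vesicles for fusion, was 179, 251 and 191 with Yap siRNA against 569, 692 and 708 with Wwtr1 siRNA (log2 difference -1.67, SE 0.27, limma adjusted p 0.00433). Scn3b, a subunit of voltage-gated sodium channels, was 83.0, 69.6 and 53.4 with Yap siRNA against 274, 276 and 175 with Wwtr1 siRNA (log2 difference -1.79, SE 0.23, limma adjusted p 0.00127). The rule that named these genes by size required groups without overlap, so that trait is no separate result. All 3 calls held when any library was left out. Slc8a2, a sodium and calcium exchanger, and Syp, the vesicle protein synaptophysin, were chosen after their values were seen and are of low level. Slc8a2 was 0.0, 11.8 and 0.0 with Yap siRNA against 26.1, 42.9 and 31.5 with Wwtr1 siRNA (log2 difference -3.85, SE 1.01, limma adjusted p 0.036). Syp was 7.17, 4.28 and 10.5 with Yap siRNA against 39.7, 46.9 and 26.4 with Wwtr1 siRNA (log2 difference -2.25, SE 0.54, limma adjusted p 0.0257). The groups overlapped in neither gene. Slc8a2 lost its call without Wwtr1 siRNA replicates 1, 2 or 3, or Yap siRNA replicates 1 or 3, or double knockdown replicate 2 (limma adjusted p 0.0514 to 0.13), and with a pseudocount of 0.1 (limma adjusted p 0.0939), the 6 compared libraries alone (limma adjusted p 0.0646), the double knockdown left out of the fit (limma adjusted p 0.0587) or edgeR on recovered reads (adjusted p 0.105). Syp lost its call without Wwtr1 siRNA replicates 1, 2 or 3, or Yap siRNA replicates 1 or 2 (limma adjusted p 0.0509 to 0.106). Syn1, the synaptic vesicle protein synapsin, is outside the list but among the largest differences, with 86.1, 68.5 and 108 normalized counts with Yap siRNA and 254, 310.2 and 383 with Wwtr1 siRNA (log2 difference -1.84, SE 0.29, limma adjusted p 0.00351). Slc29a4, a monoamine transporter, was 88.1, 64.3 and 97.4 with Yap siRNA against 165, 315 and 405 with Wwtr1 siRNA (log2 difference -1.74, SE 0.31, limma adjusted p 0.00632). The further neuronal genes Nlgn3, Cntn2, Rab3b and Ptprn, chosen after their values were seen, were 2.36 to 2.53-fold higher with Wwtr1 siRNA and passed. Of these, Rab3b lost its call without Wwtr1 siRNA replicates 1 or 3, or Yap siRNA replicates 2 or 3 (limma adjusted p 0.0627 to 0.0754), and Ptprn without Wwtr1 siRNA replicates 2 or 3, or Yap siRNA replicate 1 (limma adjusted p 0.0501 to 0.0642). They are on no list here and add nothing to the list counts. Other neuronal genes, Tubb3, Prph and Eno2, passed higher with Yap siRNA and are given below.

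The repressor gene itself did not pass. Rest was 882, 1327 and 989.8 with Yap siRNA and 824, 952 and 1018 with Wwtr1 siRNA, and its difference was 0.18 with a 95% interval of -0.22 to 0.58 (limma adjusted p 0.601). The members that passed higher with Yap siRNA were Rcor2, a Rest corepressor (log2 difference 0.43, SE 0.11, limma adjusted p 0.0343), and the neuronal tubulin Tubb3 (log2 difference 0.54, SE 0.15, limma adjusted p 0.0435), both chosen after their values were seen. Rcor2 lost its call without Wwtr1 siRNA replicates 1, 2 or 3, or Yap siRNA replicates 1 or 2 (limma adjusted p 0.0743 to 0.116). Tubb3 lost its call without Wwtr1 siRNA replicates 1 or 2, or Yap siRNA replicates 1, 2 or 3, or negative siRNA replicates 1, 2 or 3, or double knockdown replicate 2 (limma adjusted p 0.0548 to 0.142), and with no trend in the variance (limma adjusted p 0.0793).

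Markers of Schwann cells and peripheral neurons, which a heart culture could hold, were given beside these genes. Of 9 such markers tested, 2 passed, both higher with Yap siRNA (4 higher and 1 lower with the block). In 7 of the 9 the difference was above 0, and the differences ran from -2.25 to 1.82. By replicate number the medians were 1.18, 0.74 and -0.07. Prph, a filament of peripheral neurons, was 167, 173 and 123 with Yap siRNA and 33.4, 56.1 and 40.6 with Wwtr1 siRNA (log2 difference 1.82, SE 0.36, limma adjusted p 0.011). The Schwann cell marker S100b was 92.2, 97.5 and 73.3 with Yap siRNA against 13.6, 32.7 and 41.7 with Wwtr1 siRNA (log2 difference 1.68, SE 0.39, limma adjusted p 0.022), a call lost without Wwtr1 siRNA replicate 1, or Yap siRNA replicates 1 or 2 (limma adjusted p 0.0521 to 0.0742). The summed level of the 9 markers was 934 to 1400 normalized counts with Yap siRNA and 549 to 892 with Wwtr1 siRNA, and none was at 0 in a whole group.

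**Figure D3:**
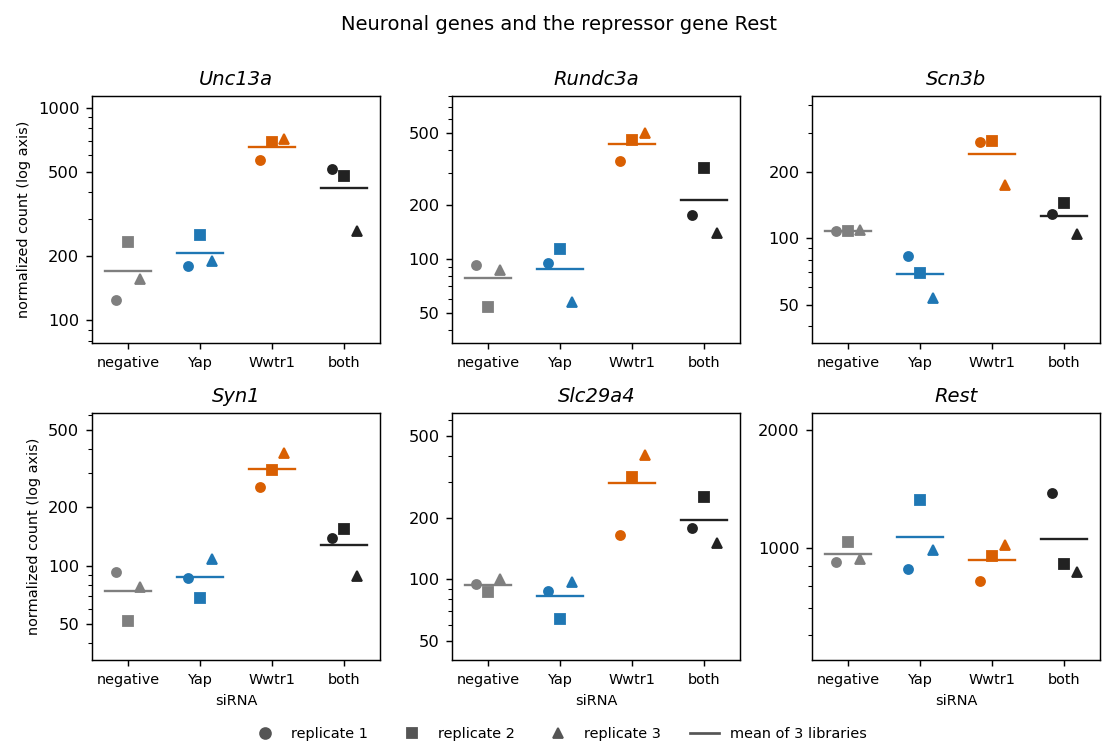
Normalized counts (vertical log axis) of Unc13a, Rundc3a, Scn3b, Syn1, Slc29a4 and Rest in the 12 libraries by siRNA, with a shape for each replicate number and a bar at the mean of 3. The first 5 genes were named by a rule that required no overlap, and their Wwtr1 siRNA libraries sit above all Yap siRNA libraries. In Rest the groups overlap.

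The start of Vgf is shown because, of the genes that passed with a mean of at least 100 and no overlap, it had the widest difference on the Wwtr1 siRNA side. The 250 bases before the start of Vgf, from RefSeq (GRCr8, chr12:25277021-25277270, minus strand, 5′ to 3′), have in capitals a cAMP response element (TGACGTCA, first base at -90) and the letters GCTGTCC at -18, the reverse complement of the second part of the Rest recognition sequence (GGACAGC).
Vgf: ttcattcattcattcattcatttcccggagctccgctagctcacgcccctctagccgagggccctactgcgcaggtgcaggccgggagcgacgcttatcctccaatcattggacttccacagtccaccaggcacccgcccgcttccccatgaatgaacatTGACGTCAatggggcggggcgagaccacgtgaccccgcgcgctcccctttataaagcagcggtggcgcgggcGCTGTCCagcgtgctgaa
Among all 33469 windows of the table (250 bases before to 50 after a start), 1.83% held the first motif and 6.59% the second on either strand. The build differs from that of the deposited counts (rn6), and a match describes letters only.

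Genes of cholesterol synthesis and its regulation lay on the other side, with lower levels under Wwtr1 siRNA than under Yap siRNA. Cells make cholesterol from acetyl-CoA through mevalonate and squalene, and the transcription factor Srebp2 (gene Srebf2) raises the enzymes together when membrane sterol is low. Of 27 genes on the list, 26 were listed and tested. Of these, 18 passed higher with Yap siRNA against 2 lower (22 and 2 with the block). Among all genes 4.57% and 4.22% passed (11.6% and 11% with the block). In 24 of the 26 genes the difference was above 0, and the median was 0.51. By replicate number the medians were 0.55, 0.33 and 0.61. With 1 library left out, 12 to 19 members passed higher and the median was 0.48 to 0.56, with 12 in the fit that lacked Wwtr1 siRNA replicate 3 and 13 in that lacking Yap siRNA replicate 1. The 2 lower became 1 without any Wwtr1 siRNA library or Yap siRNA replicates 2 or 3. The 6 members that did not pass also had differences above 0. Like the other lists, this one was chosen with earlier results of these data known, so its counts are not independent of them.

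Hmgcs1, the enzyme that commits acetyl-CoA to the pathway, was 9205, 9378 and 10634 normalized counts with Yap siRNA and 3638, 4173 and 4249.6 with Wwtr1 siRNA. The groups were far apart, with a 2.42-fold difference of means (log2 difference 1.28, SE 0.12, limma adjusted p 0.000321). Mvd, the last step to isopentenyl units, was 1937, 1778 and 1999.5 with Yap siRNA against 978, 1144 and 1229.6 with Wwtr1 siRNA (log2 difference 0.77, SE 0.087, limma adjusted p 0.000755). Sc5d, a late desaturase, was 2939, 3032 and 3274 with Yap siRNA against 2059.7, 2236 and 2076 with Wwtr1 siRNA (log2 difference 0.54, SE 0.068, limma adjusted p 0.00106). The regulator Srebf2 was also lower with Wwtr1 siRNA, at 7059, 7598 and 7375 with Yap siRNA and 4004, 4713 and 4401 with Wwtr1 siRNA (log2 difference 0.75, SE 0.086, limma adjusted p 0.000758). All 4 calls held when any library was left out.

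Further enzymes of the list were named from among those that passed. Chosen after their values were seen, Mvk, Fdps, Fdft1, Sqle, Lss, Cyp51, Msmo1, Tm7sf2, Hsd17b7, Ebp and Dhcr7, enzymes from mevalonate kinase to the last reductions, also passed higher with Yap siRNA, by 0.41 (Fdft1) to 0.98 (Tm7sf2). The calls of Fdps, Lss, Msmo1 and Ebp held when any library was left out. Mvk lost its call without Wwtr1 siRNA replicate 2 (limma adjusted p 0.0504), Sqle without Wwtr1 siRNA replicate 3 (limma adjusted p 0.0524), and Fdft1 without Yap siRNA replicates 1 or 3 (limma adjusted p 0.0502 to 0.051). Cyp51 lost its call without Wwtr1 siRNA replicates 1 or 3, or Yap siRNA replicate 3 (limma adjusted p 0.0514 to 0.0587), and Hsd17b7 without Wwtr1 siRNA replicates 1 or 3, or Yap siRNA replicate 1 (limma adjusted p 0.0501 to 0.0585). The losses of Tm7sf2 came without Wwtr1 siRNA replicates 1 or 3, or Yap siRNA replicates 1 or 3 (limma adjusted p 0.0538 to 0.0686), and those of Dhcr7 without Wwtr1 siRNA replicates 1 or 3, or Yap siRNA replicates 1 or 3 (limma adjusted p 0.0682 to 0.0938).

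Genes of sterol sensing went in both directions. Scap, which escorts Srebp proteins to their activation, was lower with Yap siRNA (log2 difference -0.29, limma adjusted p 0.0228). Insig1, a target of Srebp2 that holds Scap back when sterol is plentiful, passed higher by 0.52 (limma adjusted p 0.0346). Srebf1, the paralog of Srebf2, did not pass, at 4818, 4579 and 3464 with Yap siRNA and 5134, 5601 and 4556 with Wwtr1 siRNA (log2 difference -0.26, SE 0.14, limma adjusted p 0.297, or 0.0273 with the block). These 3 genes were chosen after their values were seen. Scap lost its call without Wwtr1 siRNA replicates 1, 2 or 3, or Yap siRNA replicates 2 or 3 (limma adjusted p 0.0648 to 0.0788). Insig1 lost its call without Wwtr1 siRNA replicates 2 or 3, or Yap siRNA replicates 1 or 2 (limma adjusted p 0.0795 to 0.124), and with no trend in the variance (limma adjusted p 0.0664).

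Against the shared negative libraries, the median of the 26 genes was -0.36 for Yap siRNA, -0.88 for Wwtr1 siRNA and -1.12 for both together. Hmgcs1 was 13291, 13066 and 11326 with negative siRNA and 3246, 3766 and 4726 with both siRNAs. Its difference from negative siRNA was -0.37 with Yap siRNA (limma adjusted p 0.126) and -1.64 with Wwtr1 siRNA (limma adjusted p 7.38e-05).

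**Figure D4:**
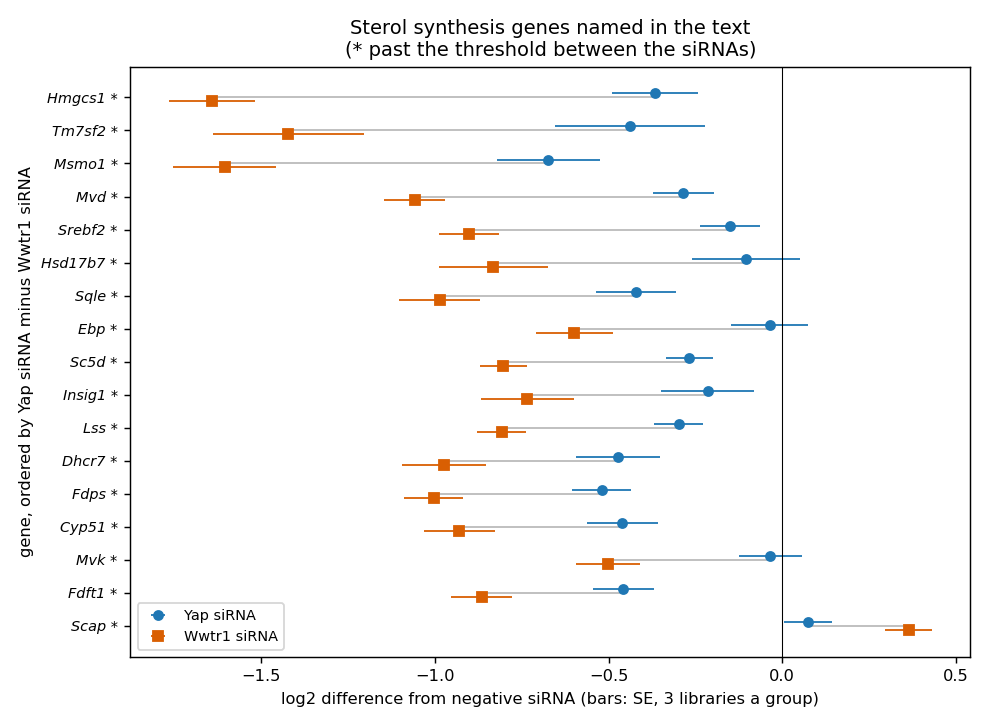
Log2 difference from negative siRNA (horizontal, bars show SE) with Yap siRNA (circles) and Wwtr1 siRNA (squares) for the 17 sterol genes named in the text, ordered by the difference between the siRNAs, where a star marks a gene that passed between them. All 17 passed, squares lie left of circles in 16 of them, and Scap at the bottom shows the reverse.

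The start of Hmgcs1 is shown as that of the sterol gene with the widest difference. The 250 bases before the start of Hmgcs1, from RefSeq (GRCr8, chr2:53382054-53382303, plus strand, 5′ to 3′), have in capitals the letters of the box bound by the factor NF-Y (CCAAT, here as its reverse complement ATTGG) with first bases at -188 and -133.
Hmgcs1: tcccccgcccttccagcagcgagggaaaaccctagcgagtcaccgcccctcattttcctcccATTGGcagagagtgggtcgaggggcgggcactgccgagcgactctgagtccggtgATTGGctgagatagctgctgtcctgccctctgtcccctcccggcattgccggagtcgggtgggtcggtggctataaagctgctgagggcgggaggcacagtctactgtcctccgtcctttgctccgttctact
This short box was in 37.5% of all windows on either strand. Windows were found for 18 of the 26 sterol genes, too few to read a share for the list. The box was in 14 of the 18, where 38.1% of genes tested with a window held it. The core of the sterol response element (CACCCCAC), also searched, was in 1 of the 18, Ebp, and not in Hmgcs1. Among genes tested with a window 2.54% held that core, and neither count was tested.

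Other lipid genes held fewer calls. In fatty acid synthesis, 2 of 18 genes passed, both higher with Yap siRNA, with a list median of 0.07 (4 higher and 5 lower with the block). That median ran from -0.01 without Yap siRNA replicate 2 to 0.09 without Wwtr1 siRNA replicate 1, and was -0.02, -0.01 and 0.09 by replicate number. In the fits without 1 library, 1 passed higher without any Wwtr1 siRNA library or Yap siRNA replicates 2 or 3, and 2 also passed lower without double knockdown replicate 3. Acss2, which makes acetyl-CoA from acetate, was 1542, 1437 and 1240.1 with Yap siRNA against 879.6, 926 and 650.3 with Wwtr1 siRNA (log2 difference 0.79, SE 0.16, limma adjusted p 0.0108). Fasn, fatty acid synthase, was 17012, 18751 and 19366 with Yap siRNA against 12999, 14647 and 14714 with Wwtr1 siRNA (log2 difference 0.38, SE 0.092, limma adjusted p 0.0266), and its call was lost without Wwtr1 siRNA replicates 1, 2 or 3, or Yap siRNA replicates 2 or 3 (limma adjusted p 0.0543 to 0.0882), and with no trend in the variance (limma adjusted p 0.0506). Among 12 genes of cholesterol efflux and LXR response (5 higher and 2 lower with the block), Mylip, a ubiquitin ligase and LXR target, passed higher with Yap siRNA, at 799, 628 and 763 with Yap siRNA against 438, 437 and 423 with Wwtr1 siRNA (log2 difference 0.75, SE 0.15, limma adjusted p 0.0103). Npc1, which moves cholesterol out of lysosomes, passed lower, at 2084, 2172 and 2131 with Yap siRNA against 2742, 2729 and 2618 with Wwtr1 siRNA (log2 difference -0.34, SE 0.057, limma adjusted p 0.00463).

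The Hippo pathway held calls in both directions, more of them lower with Yap siRNA. Of 21 tested genes (of 26 listed for the pathway), 7 passed lower and 2 higher with Yap siRNA, with a median of -0.20 (from -0.28 without Wwtr1 siRNA replicate 1 to -0.12 without Yap siRNA replicate 1). Lats2, the kinase that holds both coactivators in check and is itself a known target of them, was 3877, 4654 and 5025 with Yap siRNA and 6658, 7126 and 7360.1 with Wwtr1 siRNA (log2 difference -0.65, SE 0.091, limma adjusted p 0.00206). With negative siRNA it was 7203, 7334 and 8033, so the Wwtr1 siRNA libraries differed from it by -0.09 (limma adjusted p 0.584) and the Yap siRNA libraries by -0.74 (limma adjusted p 0.00336). Ajuba, a scaffold that binds the Lats kinases, was 2417, 2456 and 3114 with Yap siRNA and 3719.8, 4138 and 4753 with Wwtr1 siRNA (log2 difference -0.66, SE 0.12, limma adjusted p 0.00798). Wwc2, a relative of the upstream regulator Kibra, was 4476, 5410.3 and 4999 with Yap siRNA against 6485, 6571 and 6784 with Wwtr1 siRNA (log2 difference -0.42, SE 0.076, limma adjusted p 0.00703). The other members lower with Yap siRNA, named after their values were seen, were Fat1, Lats1, Sav1 and Stk4, with differences of -0.69, -0.44, -0.31 and -0.30. Each lost its call without at least 4 of the 6 compared libraries, with limma adjusted p of up to 0.109, 0.12, 0.0913 and 0.139 in the same order. Stk4 also lost it without any negative siRNA library and with the 6 compared libraries alone (limma adjusted p 0.0833), and with no trend in the variance Fat1, Lats1 and Stk4 lost theirs (limma adjusted p 0.0565, 0.0628 and 0.053).

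The kinase Map4k4 went the other way, with 10295, 11044 and 11011 normalized counts with Yap siRNA and 7908, 7558 and 8128 with Wwtr1 siRNA (log2 difference 0.46, SE 0.074, limma adjusted p 0.00425). It differed from negative siRNA by -0.57 with Wwtr1 siRNA and by -0.12 with Yap siRNA. The Lats cofactor Mob1a, named after its values were seen, had a difference of 0.50 (limma adjusted p 0.0288), and lost its call without Wwtr1 siRNA replicates 1, 2 or 3, or Yap siRNA replicates 1, 2 or 3 (limma adjusted p 0.0501 to 0.0955), and with no trend in the variance (limma adjusted p 0.056). With 1 library left out, 3 to 7 members passed lower and 1 or 2 higher, 3 lower without Wwtr1 siRNA replicates 2 or 3 or Yap siRNA replicate 1, 4 lower without Wwtr1 siRNA replicate 1 or Yap siRNA replicates 2 or 3, and 1 higher without any of these 6.

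The start of Ajuba is shown because it holds the box that TEAD factors bind. The 250 bases before the start of Ajuba, from RefSeq (GRCr8, chr15:32000043-32000292, minus strand, 5′ to 3′), have in capitals CATTCC, the reverse complement of GGAATG, with its first base at -236.
Ajuba: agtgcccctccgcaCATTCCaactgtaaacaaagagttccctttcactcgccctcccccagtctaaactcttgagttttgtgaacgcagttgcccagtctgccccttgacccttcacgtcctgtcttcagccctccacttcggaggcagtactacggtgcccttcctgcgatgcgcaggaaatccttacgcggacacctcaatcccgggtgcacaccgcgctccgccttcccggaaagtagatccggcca
This box was in 14.2% of all windows on either strand. Among genes tested with a window it stood in 18.0% of 405 genes lower with Yap siRNA, 9.87% of 446 higher and 11.6% of all 9591. These shares are descriptions without a test, and a window was found for 80.8%, 82.1% and 80.8% of the genes in each set.

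Among 27 tested genes often named as Yap targets, 6 passed lower and 2 higher with Yap siRNA (12 and 5 with the block), and the median was -0.19, with -0.26 without Wwtr1 siRNA replicate 1 to -0.09 without Wwtr1 siRNA replicate 3 when 1 library was left out and -0.12 without Yap siRNA replicate 1. Lats2 and Ajuba are also on this list. Gadd45b, a stress and growth arrest gene, was 877, 801 and 837 with Yap siRNA and 1138, 1062 and 1203 with Wwtr1 siRNA (log2 difference -0.44, SE 0.093, limma adjusted p 0.0153), and lost its call without Wwtr1 siRNA replicate 3, or Yap siRNA replicate 2 (limma adjusted p 0.0557 to 0.0619). Nt5e, the enzyme that makes adenosine outside the cell, passed in the other direction with 1141, 1156 and 1114 with Yap siRNA against 521, 717 and 565 with Wwtr1 siRNA (log2 difference 0.93, SE 0.15, limma adjusted p 0.00417). From negative siRNA Nt5e differed by -0.75 with Wwtr1 siRNA (limma adjusted p 0.00941) and by 0.18 with Yap siRNA. Leaving out 1 library gave 2 to 6 members lower, 2 in the fit that lacked Wwtr1 siRNA replicate 3 and 3 in those lacking Yap siRNA replicates 2 or 3. The 2 members higher became 1 in 8 fits, those without any Wwtr1 siRNA library, negative siRNA replicates 1 or 2, Yap siRNA replicates 2 or 3 or double knockdown replicate 2, and 3 without double knockdown replicate 3.

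The targets best known from other cells did not pass. Ccn1 and Ccn2, secreted matricellular proteins, had differences of -0.17 (95% interval -0.44 to 0.11, limma adjusted p 0.451) and -0.36 (-0.76 to 0.05, limma adjusted p 0.261), and Ankrd1, a cardiac ankyrin repeat protein, had 0.16 (-0.15 to 0.46, limma adjusted p 0.549). Ccn2 was 58479.7, 62474 and 80256 normalized counts with Yap siRNA and 68613, 87455 and 102879 with Wwtr1 siRNA, lower with Yap siRNA at every replicate number, and with the block its limma adjusted p was 0.00314. Ccn3 was 10274, 10968 and 18194 with Yap siRNA and 7539, 6855 and 9589 with Wwtr1 siRNA (log2 difference 0.68, SE 0.24, limma adjusted p 0.103, or 0.000293 with the block), in the opposite direction. These 4 genes were chosen after their values were seen. Of the 5 Ccn genes tested, Ccn4 passed (2 lower and 1 higher with the block), lower with Yap siRNA at 862, 1028 and 849 with Yap siRNA against 1529.7, 1446 and 1404 with Wwtr1 siRNA (log2 difference -0.68, SE 0.15, limma adjusted p 0.0185). Its call was lost without Wwtr1 siRNA replicates 1, 2 or 3, or Yap siRNA replicates 1 or 3 (limma adjusted p 0.0507 to 0.0696).

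None of 6 tested genes for TEAD factors, the Vgll partner Vgll4 and Runx factors passed with limma, 2 were under an unadjusted p of 0.05, and 3 passed with the block (Tead3, Runx1 and Runx2), all lower with Yap siRNA. With limma, 1 passed lower without Wwtr1 siRNA replicate 1 or double knockdown replicate 3. Tead3 was the nearest, at 3443, 3225 and 3607 with Yap siRNA and 3853, 4442 and 4698 with Wwtr1 siRNA (log2 difference -0.34, SE 0.10, limma adjusted p 0.0541, or 0.00745 with the block). On recovered reads Tead3 passed with edgeR and with DESeq2 (adjusted p 0.0477 and 0.0167). Tead3 was chosen after its values were seen.

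Calls among genes of adhesion and the actin skeleton fell on both sides. Of 30 tested, 6 passed lower and 2 higher (12 and 2 with the block), and the median was -0.15 (-0.22 without Yap siRNA replicate 3 to -0.05 without Yap siRNA replicate 1). Itga6, the laminin-binding integrin chain, was 1092, 1505 and 1499 normalized counts with Yap siRNA and 2468, 3202 and 3804 with Wwtr1 siRNA (log2 difference -1.20, SE 0.19, limma adjusted p 0.00403). It was 3071, 3318 and 4772 with negative siRNA and 1273, 1425 and 1553 with both, so that libraries with Yap siRNA were low with or without Wwtr1 siRNA. Arhgap29, a GTPase-activating protein and known Yap target, was 2140.3, 2504 and 2372 with Yap siRNA against 4206, 4747 and 5384 with Wwtr1 siRNA (log2 difference -1.03, SE 0.16, limma adjusted p 0.00351). Itga3, another laminin receptor chain, was 624, 685 and 567 with Yap siRNA against 864, 1185 and 1184 with Wwtr1 siRNA (log2 difference -0.77, SE 0.13, limma adjusted p 0.0059), but here the Wwtr1 siRNA value was the one that differed from negative siRNA (0.87, limma adjusted p 0.00256, against 0.10 with Yap siRNA).

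Itgb8, an integrin chain that releases TGF-beta, went higher with Yap siRNA, at 203, 244 and 199 with Yap siRNA against 136, 77.6 and 96.5 with Wwtr1 siRNA (log2 difference 1.09, SE 0.22, limma adjusted p 0.0111). Lims2 (Pinch2), an adaptor of integrin signalling, was lower, at 899, 798 and 736 with Yap siRNA and 2015, 2231 and 2599 with Wwtr1 siRNA (log2 difference -1.49, SE 0.14, limma adjusted p 0.00026). Its negative siRNA libraries were 2117, 1899 and 2512 and its double knockdown libraries 806, 866 and 651. Leaving out 1 library gave 3 to 6 members lower and 1 to 3 higher, with 3 lower without Wwtr1 siRNA replicate 2 or Yap siRNA replicate 1, 1 higher without Wwtr1 siRNA replicate 1 or Yap siRNA replicate 2, and the calls of the 5 genes named here holding in all 12 fits.

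In the Notch pathway, in which ligands on a neighbouring cell release a receptor fragment that acts in the nucleus, 3 of 17 tested genes passed lower and 2 higher with Yap siRNA, with a median of -0.34 (7 lower and 2 higher with the block). The receptor Notch3 was 9076, 10614 and 13302 with Yap siRNA and 22406, 24433 and 31288 with Wwtr1 siRNA (log2 difference -1.25, SE 0.15, limma adjusted p 0.00093). Its target Heyl was 3157, 2830.5 and 4169.7 with Yap siRNA against 7112, 6309.6 and 7861 with Wwtr1 siRNA (log2 difference -1.08, SE 0.17, limma adjusted p 0.00351). Against negative siRNA, Heyl differed by -0.99 with Yap siRNA (limma adjusted p 0.00921) and by 0.09 with Wwtr1 siRNA (limma adjusted p 0.791). The coactivator Maml1 passed lower by -0.40 (limma adjusted p 0.0126), a call lost without Wwtr1 siRNA replicate 2, or Yap siRNA replicate 1 (limma adjusted p 0.0529 to 0.058). The target Hes1 passed higher by 0.41 (limma adjusted p 0.0259), a call lost without Wwtr1 siRNA replicates 1, 2 or 3, or Yap siRNA replicates 1 or 2 (limma adjusted p 0.0562 to 0.096). No member of the list passed higher without any Wwtr1 siRNA library or Yap siRNA replicate 2, and 1 did without Yap siRNA replicates 1 or 3.

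Notch3 and Heyl are known from mural cells, the pericytes and smooth muscle around vessels. Of 10 mural markers tested, Notch3 passed (2 lower without double knockdown replicate 3, and 5 lower and 2 higher with the block), 3 were above 0, and the summed level of the 10 was 37684 to 49744 normalized counts with Yap siRNA and 60576 to 86263 with Wwtr1 siRNA. The sum includes Notch3 itself. Without Notch3 it was 28607 to 37134 with Yap siRNA and 38171 to 54975 with Wwtr1 siRNA, so the groups overlapped in neither sum, and its part in the Notch values was not tested. In such bulk samples fewer cells of a type and less RNA per cell cannot be told apart.

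Differences of the 15 tested contractile genes of the myofibroblast and their regulators were all below 0, and 1 passed. Mylk, the kinase that activates smooth muscle myosin, passed lower with Yap siRNA at 8165, 9471 and 9349 with Yap siRNA against 11152, 12466 and 12453 with Wwtr1 siRNA (log2 difference -0.42, SE 0.079, limma adjusted p 0.00798). The median was -0.30, and with the block 10 of the 15 passed lower. Acta2, smooth muscle actin and the usual marker of the myofibroblast, was 147923, 142887 and 200792 with Yap siRNA and 206242, 239187 and 266100.0 with Wwtr1 siRNA. Libraries with Yap siRNA were all below those with Wwtr1 siRNA, yet the difference did not pass (log2 difference -0.54, SE 0.23, limma adjusted p 0.175), whereas the block gave a limma adjusted p of 0.000745. Without double knockdown replicate 3, 3 of the 15 passed lower. The summed level of the mural markers, given above, moved the same way as these genes, and Myh11, Cnn1, Des and Lmod1 are on both lists. Its part in the contractile values was not tested.

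Of the collagens tested, 13.3% passed in the fit without the block, where 8.79% of all genes did. Of 15 tested, Col5a3 passed lower and Col3a1 higher with Yap siRNA, with a median of 0.24 (2 lower and 7 higher with the block, against 11% and 11.6% of all genes). The count higher depended on the fit, with 2 by edgeR and 6 by DESeq2, and the median ran from 0.18 without Yap siRNA replicate 2 to 0.36 without Yap siRNA replicate 1. Col5a3, a chain of type V collagen, was 5382, 6484 and 6263 with Yap siRNA and 12592, 14652 and 17774 with Wwtr1 siRNA (log2 difference -1.30, SE 0.14, limma adjusted p 0.000431). It differed from negative siRNA by 1.48 with Wwtr1 siRNA (limma adjusted p 0.000158) and by 0.18 with Yap siRNA (limma adjusted p 0.52). Col3a1, a main fibrillar collagen of scar, was 771692, 817599 and 700182 with Yap siRNA against 400143, 391486 and 365700.0 with Wwtr1 siRNA (log2 difference 0.98, SE 0.26, limma adjusted p 0.036). The groups did not overlap, but the call was lost without Wwtr1 siRNA replicates 1, 2 or 3, or Yap siRNA replicates 1, 2 or 3, or negative siRNA replicate 2 (limma adjusted p 0.052 to 0.106), and with no trend in the variance (limma adjusted p 0.0571). Col1a1, the other main fibrillar collagen, was 1860590.0, 1748530.0 and 1753150.0 with Yap siRNA against 1684620.0, 1835980.0 and 1828730.0 with Wwtr1 siRNA, with a difference of 0.0040 and a 95% interval of -0.37 to 0.38. It was chosen after its values were seen. None of the 15 passed higher without any Wwtr1 siRNA library or Yap siRNA replicates 1 or 2. Without double knockdown replicates 2 or 3, 2 and 3 of the 15 passed higher, and without replicate 3 also 2 lower.

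Of 31 other matrix genes, 1 passed higher and 2 lower where 4.57% and 4.22% of all genes did. With the block 10 and 9 passed where 11.6% and 11% of all genes did, and with DESeq2 2 and 5. Postn, the matricellular protein periostin that marks activated fibroblasts, was 156836, 180128 and 141507 with Yap siRNA and 95853, 87071 and 74604 with Wwtr1 siRNA (log2 difference 0.89, SE 0.17, limma adjusted p 0.00805). Loxl4, which cross-links collagen, was 197, 197 and 215 with Yap siRNA against 405, 344 and 472 with Wwtr1 siRNA (log2 difference -0.99, SE 0.18, limma adjusted p 0.00703). Fbn2, a fibrillin of microfibrils, was 897, 1327 and 1089 with Yap siRNA against 1869.8, 1846 and 1964 with Wwtr1 siRNA (log2 difference -0.79, SE 0.16, limma adjusted p 0.0116). P4ha2, an enzyme that hydroxylates proline in collagen, is on another list and was named for its size. It was 8011, 7036 and 7205 with Yap siRNA and 2310.2, 2477 and 2878 with Wwtr1 siRNA (log2 difference 1.54, SE 0.18, limma adjusted p 0.000767), against 5959, 6198 and 6324 with negative siRNA. Without double knockdown replicate 3, 4 of the 31 passed higher and 6 lower.

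Of 24 matrix proteases and inhibitors, 2 passed in each direction (10 higher and 6 lower with the block). With edgeR 1 passed higher and 2 lower, and with DESeq2 4 higher and 3 lower. The membrane protease Mmp16 was 891, 856 and 728 with Yap siRNA against 1406, 1383 and 1408 with Wwtr1 siRNA (log2 difference -0.77, SE 0.12, limma adjusted p 0.00351), and Adamts9, which cleaves proteoglycans, was 967, 1165 and 1229.7 with Yap siRNA against 1797, 1827 and 1899 with Wwtr1 siRNA (log2 difference -0.72, SE 0.12, limma adjusted p 0.00554). The inhibitors Timp1 and Serpine2 were higher with Yap siRNA, by 0.69 (limma adjusted p 0.0219) and 0.68 (limma adjusted p 0.0497). The count higher was 0 without Wwtr1 siRNA replicates 2 or 3 or Yap siRNA replicate 1, and 1 without negative siRNA replicates 2 or 3, Wwtr1 siRNA replicate 1 or Yap siRNA replicate 2. Timp1 lost its call without Wwtr1 siRNA replicates 1, 2 or 3, or Yap siRNA replicates 1 or 2 (limma adjusted p 0.0591 to 0.0803). Serpine2 lost its call without Wwtr1 siRNA replicates 1, 2 or 3, or Yap siRNA replicates 1, 2 or 3, or negative siRNA replicates 2 or 3 (limma adjusted p 0.0576 to 0.146), and with a pseudocount of 0.1 (limma adjusted p 0.052), no filter on low values (limma adjusted p 0.0504), upper-quartile scaling (limma adjusted p 0.0521), the block on all 12 libraries (limma adjusted p 0.0563), no trend in the variance (limma adjusted p 0.0886) or edgeR on recovered reads (adjusted p 0.0683).

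Genes of the integrated stress response, which the factor Atf4 drives when amino acids are short or the endoplasmic reticulum is strained, held calls in both directions. Of 30 tested, 8 passed lower and 1 higher (15 and 2 with the block), and the median was -0.20. Trib3, a pseudokinase that feeds back on Atf4, was 1658, 1912 and 1749 with Yap siRNA and 3131, 3377 and 3343 with Wwtr1 siRNA (log2 difference -0.89, SE 0.12, limma adjusted p 0.00159). Stc2, a secreted stanniocalcin, was 132, 106 and 112 with Yap siRNA against 242, 235 and 248 with Wwtr1 siRNA (log2 difference -1.05, SE 0.17, limma adjusted p 0.00463), and Wars1, the tryptophan tRNA synthetase, was 11708, 11611 and 11039 with Yap siRNA against 14548, 14454 and 14382 with Wwtr1 siRNA (log2 difference -0.34, SE 0.055, limma adjusted p 0.00433). In these 3 genes the Wwtr1 siRNA libraries also lay above every negative siRNA library.

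Ddit4, an inhibitor of mTORC1, passed the other way, at 3400.4, 3594 and 2692 with Yap siRNA and 2101, 1872 and 1435 with Wwtr1 siRNA (log2 difference 0.85, SE 0.15, limma adjusted p 0.00532). Atf4 itself did not pass at the RNA level (log2 difference -0.20, SE 0.079, limma adjusted p 0.146, or 0.0156 with the block). In the fits without 1 library, 4 to 10 members passed lower, 4 without Wwtr1 siRNA replicate 3 or Yap siRNA replicate 1 and 5 without Wwtr1 siRNA replicate 2 or Yap siRNA replicate 2. None of 21 chaperones, stress sensors and degradation factors of the endoplasmic reticulum passed in this fit (7 at an unadjusted p under 0.05, 3 in each direction with the block, 0 with edgeR and 4 with DESeq2), while 1 passed higher without negative siRNA replicate 1, 1 lower without negative siRNA replicate 2 or Yap siRNA replicate 2, and 1 higher and 2 lower without double knockdown replicate 3.

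Among 28 immediate early genes and feedback inhibitors of growth signalling, 5 passed higher and 4 lower with Yap siRNA (9 and 5 with the block). Spry1, an inhibitor of Ras signalling, was 2454, 2734 and 3056 with Yap siRNA against 1652, 1629 and 1652 with Wwtr1 siRNA (log2 difference 0.73, SE 0.12, limma adjusted p 0.00417), and Jun, a subunit of AP-1, was 3970.1, 4632 and 3971 with Yap siRNA against 2380.1, 2786 and 3089 with Wwtr1 siRNA (log2 difference 0.61, SE 0.11, limma adjusted p 0.00703). The nuclear receptor Nr4a3 was 201, 162 and 172 with Yap siRNA against 328, 318 and 308 with Wwtr1 siRNA (log2 difference -0.84, SE 0.15, limma adjusted p 0.00676), and the small Maf factor Maff was 587, 519 and 487 with Yap siRNA against 806, 744 and 972 with Wwtr1 siRNA (log2 difference -0.66, SE 0.13, limma adjusted p 0.0112). The 4 named calls held when any library was left out, while the counts ran from 2 to 9 higher and from 2 to 4 lower. They were 2 and 2 without Wwtr1 siRNA replicate 2 or any Yap siRNA library, 2 and 3 without Wwtr1 siRNA replicate 1 or negative siRNA replicate 1, 4 and 2 without Wwtr1 siRNA replicate 3, and 9 and 4 without double knockdown replicate 3.

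Of 38 growth factors, their receptors and binding proteins, 5 passed, all lower with Yap siRNA, with a median of -0.11 (8 lower and 6 higher with the block). Leaving out 1 library took the median from -0.17 without Yap siRNA replicate 2 to -0.05 without Yap siRNA replicate 3. Pdgfrb, a receptor for platelet-derived growth factor, was 66206, 64529 and 59094 with Yap siRNA against 96613, 90483 and 84369 with Wwtr1 siRNA (log2 difference -0.52, SE 0.10, limma adjusted p 0.0113). Fgf1 was 71.7, 68.5 and 90.1 with Yap siRNA against 211, 158 and 139 with Wwtr1 siRNA (log2 difference -1.12, SE 0.23, limma adjusted p 0.0119). The receptor Fgfr1 differed by -0.44 and the lymphatic growth factor Vegfc by -0.39 (limma adjusted p 0.0154 and 0.0257). Fgfr1 lost its call without Wwtr1 siRNA replicates 2 or 3, or Yap siRNA replicate 1 (limma adjusted p 0.0529 to 0.0635), and Vegfc without Wwtr1 siRNA replicates 1 or 3, or Yap siRNA replicates 1 or 2 (limma adjusted p 0.0748 to 0.0912). The count was 2 without Wwtr1 siRNA replicate 3 or Yap siRNA replicate 1, and 3 without replicate 2 of either. Without double knockdown replicates 2 or 3, 1 and 3 members passed higher.

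Of 35 cytokines, chemokines and related inflammatory genes, Lif, an interleukin-6 family cytokine, passed at 186, 296 and 173 with Yap siRNA and 453, 503 and 691 with Wwtr1 siRNA (log2 difference -1.34, SE 0.24, limma adjusted p 0.00675). With the block 5 passed higher and 2 lower, and 2 or 3 passed higher without Yap siRNA replicate 3 or double knockdown replicate 3. The count lower was 2 without Yap siRNA replicate 1, and 1 passed higher without double knockdown replicate 1. The list median was 0.47, with medians of 1.00, 0.51 and -0.38 by replicate number and 0.21 without Yap siRNA replicate 1 to 0.67 without Yap siRNA replicate 3. Macrophage markers were also higher in mean with Yap siRNA. All 17 tested had differences above 0, none passed with limma or was under an unadjusted p of 0.05 (7 passed with the block, 0 with edgeR or DESeq2), and their median was 0.55. By replicate number the medians of these markers were 1.16, 0.17 and 0.18, and the list median ran from 0.32 without Wwtr1 siRNA replicate 1 to 0.67 without Wwtr1 siRNA replicate 2. Their summed level was 27569 to 40217 normalized counts with Yap siRNA and 17292 to 27748 with Wwtr1 siRNA, against 31947 to 45900 with negative siRNA. None was at 0 in a whole group, and their part in the cytokine values was not tested.

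In the Wnt pathway 3 of 31 tested genes passed higher and 1 lower with Yap siRNA (5 and 4 with the block). Sfrp1, a secreted inhibitor of Wnt ligands, was 2321, 2000.5 and 2986 with Yap siRNA against 1396, 1025 and 1149 with Wwtr1 siRNA (log2 difference 1.02, SE 0.18, limma adjusted p 0.00554). Of the others, Fzd7 (0.42), Ctnnb1 (0.28) and Fzd2 (-0.34), receptors and the effector beta-catenin, had limma adjusted p of 0.0311, 0.0331 and 0.0158. Fzd7 lost its call without Wwtr1 siRNA replicates 1, 2 or 3, or Yap siRNA replicates 2 or 3 (limma adjusted p 0.0561 to 0.107), and with no trend in the variance (limma adjusted p 0.0536). Ctnnb1 lost its call without Wwtr1 siRNA replicates 1, 2 or 3, or Yap siRNA replicates 1, 2 or 3 (limma adjusted p 0.0705 to 0.126), and with no trend in the variance (limma adjusted p 0.0567). Fzd2 lost its call without Wwtr1 siRNA replicate 2, or Yap siRNA replicates 1 or 2 (limma adjusted p 0.0501 to 0.0736). The counts fell to 1 higher and 0 lower without Wwtr1 siRNA replicate 2 or Yap siRNA replicate 2 and to 1 higher without Wwtr1 siRNA replicates 1 or 3 or Yap siRNA replicate 3, and 2 passed lower without Yap siRNA replicate 3 or double knockdown replicate 3. In TGF-beta and BMP signalling, 1 of 34 passed higher and 2 lower (8.82% in all, where 8.79% of all genes passed, and 2 and 10 with the block), Ltbp3, Smad3 and Fstl3, with differences of 0.32, -0.34 and -0.92 (limma adjusted p 0.0472, 0.0199 and 0.0236). No member of this list passed without Wwtr1 siRNA replicate 3 or Yap siRNA replicates 1 or 2, 1 lower passed without Wwtr1 siRNA replicates 1 or 2, and 2 higher and 4 lower passed without double knockdown replicate 3. The count higher was also 0 without Wwtr1 siRNA replicates 1 or 2, negative siRNA replicates 1 or 2 or double knockdown replicate 1. The call of Ltbp3, the higher one, was lost without Wwtr1 siRNA replicates 1, 2 or 3, or Yap siRNA replicates 1 or 2, or negative siRNA replicates 1 or 2, or double knockdown replicates 1 or 2 (limma adjusted p 0.0529 to 0.148), and with upper-quartile scaling (limma adjusted p 0.0548), the 6 compared libraries alone (limma adjusted p 0.0608), the block on all 12 libraries (limma adjusted p 0.0594) or no trend in the variance (limma adjusted p 0.0805). Smad3 lost its call without Wwtr1 siRNA replicates 1 or 3, or Yap siRNA replicates 1 or 2 (limma adjusted p 0.0538 to 0.0775). Fstl3 lost its call without Wwtr1 siRNA replicates 2 or 3, or Yap siRNA replicates 1 or 2 (limma adjusted p 0.0617 to 0.0917).

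Glucose metabolism held a few wide differences. Of 29 genes of glycolysis and hypoxia response, 3 passed higher, P4ha2 (given above), Eno2 and Pgam1, and Slc2a3 passed lower (6 and 3 with the block). Pgam1 lost its call without Wwtr1 siRNA replicate 2 (limma adjusted p 0.0529), and 2 passed lower without Yap siRNA replicate 3. Eno2, the neuronal enolase, was 5021, 4339 and 4138 with Yap siRNA and 2204, 2233 and 2352 with Wwtr1 siRNA (log2 difference 0.99, SE 0.12, limma adjusted p 0.000972). The glucose transporter Slc2a3 (Glut3) was 529.7, 513 and 597 with Yap siRNA against 900.5, 987 and 985 with Wwtr1 siRNA (log2 difference -0.81, SE 0.14, limma adjusted p 0.00532). The list median was 0.05 (0.01 without Yap siRNA replicate 3 to 0.12 without Yap siRNA replicate 2).

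Other genes with large differences belong to no group above. Padi3, which turns arginine into citrulline in proteins, was 256, 241 and 334 normalized counts with Yap siRNA and 69.9, 59.2 and 72.1 with Wwtr1 siRNA (log2 difference 2.02, SE 0.19, limma adjusted p 0.00026). With negative siRNA it was 109, 102 and 107, so that it differed by 1.36 with Yap siRNA (limma adjusted p 0.00393) and by -0.66 with Wwtr1 siRNA (limma adjusted p 0.0472), in opposite directions. Steap4, a metalloreductase of iron and copper, was 189.5, 69.6 and 38.8 with Yap siRNA against 17.7, 14.3 and 20.3 with Wwtr1 siRNA (log2 difference 2.15, SE 0.51, limma adjusted p 0.0255). The Yap siRNA libraries ranged widely, and the call was lost without Wwtr1 siRNA replicates 1, 2 or 3, or Yap siRNA replicates 1 or 2 (limma adjusted p 0.0583 to 0.0912), and with the 6 compared libraries alone (limma adjusted p 0.0512). With 1 library left out the log2 difference ran from 1.54, without Yap siRNA replicate 1, to 2.67.

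With both siRNAs Steap4 was 194, 141 and 345. The list of Steap and Padi genes was built around Steap4 and Padi3, so its counts support nothing. Of 6 tested, 3 passed higher, Steap4 and Padi3 among them, and 1 lower, and 1 higher without Wwtr1 siRNA replicates 1 or 3 or Yap siRNA replicates 1 or 2. Its relatives Steap3 and Steap2 passed in opposite directions, with differences of 0.55 (limma adjusted p 0.0166) and -0.88 (limma adjusted p 0.00948). Steap3 lost its call without Wwtr1 siRNA replicates 1 or 3, or Yap siRNA replicates 1 or 2 (limma adjusted p 0.0505 to 0.066).

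In some genes every Yap siRNA library was above every negative and Wwtr1 siRNA library. Aqp1, the water channel, was 4718, 4179.8 and 2880.4 with Yap siRNA, against 1429.5, 1489 and 1609 for Wwtr1 siRNA and 1997, 1413 and 984 for negative siRNA (log2 difference 1.35, SE 0.22, limma adjusted p 0.00425). Pianp, a membrane protein that binds the receptor Pilra, was 399.6, 306 and 327 with Yap siRNA, against 164, 89.8 and 123 for Wwtr1 siRNA and 153, 75.0 and 102 for negative siRNA (log2 difference 1.48, SE 0.27, limma adjusted p 0.00772). Both passed for Yap siRNA against negative siRNA (limma adjusted p 0.0055 and 0.00798) and not for Wwtr1 siRNA (0.827 and 0.702).

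In other genes the Wwtr1 siRNA libraries were the ones that stood apart. Jam3, a junctional adhesion molecule, was 1932, 1589 and 1990.1 with Yap siRNA, against 767, 720.5 and 729.6 for Wwtr1 siRNA and 1931, 2193 and 2469 for negative siRNA (log2 difference 1.31, SE 0.10, limma adjusted p 0.000131). Sphkap, an anchor protein for protein kinase A, was 697, 878 and 1082 with Yap siRNA, against 399, 288 and 326 for Wwtr1 siRNA and 908, 917 and 909.5 for negative siRNA (log2 difference 1.38, SE 0.17, limma adjusted p 0.00093). Zbtb42, a zinc finger transcription factor, was 375, 375 and 341 with Yap siRNA, against 118, 198 and 124 for Wwtr1 siRNA and 295, 334 and 311 for negative siRNA (log2 difference 1.34, SE 0.18, limma adjusted p 0.00142). In each, every Wwtr1 siRNA library was below every Yap siRNA and negative siRNA library.

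Among genes lower with Yap siRNA, Nox4, an oxidase that makes hydrogen peroxide and was chosen after its values were seen, was 412, 452 and 548 with Yap siRNA, against 1284, 1064 and 1151 for Wwtr1 siRNA and 963, 871 and 1044 for negative siRNA (log2 difference -1.31, SE 0.19, limma adjusted p 0.00217). Olfm2, a secreted olfactomedin, was 307, 329 and 380.2 with Yap siRNA, against 895, 962 and 1176 for Wwtr1 siRNA and 585, 521 and 633 for negative siRNA, in between with negative siRNA (log2 difference -1.57, SE 0.12, limma adjusted p 0.000131). Rasgrp2, an exchange factor for Rap1, was 158, 164 and 151 with Yap siRNA against 438, 553 and 826 with Wwtr1 siRNA (log2 difference -1.89, SE 0.32, limma adjusted p 0.00488). Pparg, the nuclear receptor of fat cell formation, chosen in the same way, was 91.2, 75.0 and 59.7 with Yap siRNA against 189, 186 and 187 with Wwtr1 siRNA (log2 difference -1.32, SE 0.28, limma adjusted p 0.0152), and lost its call without Wwtr1 siRNA replicates 2 or 3 (limma adjusted p 0.0514 to 0.0552).

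The last genes named for their size were Stap2, Arhgef19, Tspyl4 and MGC109340. Stap2, an adaptor of tyrosine kinase signalling, was 596, 427 and 225 with Yap siRNA against 168, 105 and 121 with Wwtr1 siRNA (log2 difference 1.58, SE 0.37, limma adjusted p 0.0225), and lost its call without Wwtr1 siRNA replicates 2 or 3, or Yap siRNA replicates 1 or 2 (limma adjusted p 0.0717 to 0.0905). Arhgef19, a guanine nucleotide exchange factor, and Tspyl4 were both 1.35 higher with Yap siRNA (limma adjusted p 0.00575 and 0.00575). MGC109340, a gene with no named function in the table, was -1.68 (limma adjusted p 0.00103).

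Interferon-induced genes, which cells switch on when nucleic acids or interferon are sensed, had a median difference from the same negative libraries of 2.87 with Yap siRNA and 3.20 with Wwtr1 siRNA over 38 tested genes. Between the siRNAs the median was -0.05, from -0.82 (Gbp2) to 0.45 (Psmb9), 0 of 38 passed with limma, and 0 were under an unadjusted p of 0.05. With the block, with edgeR and with DESeq2 0 passed. Isg15, a ubiquitin-like protein, was 3759, 2004 and 840.0 normalized counts with Yap siRNA and 4981, 2997 and 815 with Wwtr1 siRNA, highest in replicate 1 and lowest in replicate 3 of both, and its difference of -0.31 had a 95% interval of -1.87 to 1.24. Differences over a wide range could not be detected at this spread. The median moved to -0.57 when Wwtr1 siRNA replicate 3 was left out and to 0.26 when Yap siRNA replicate 3 was. Isg15 was named after its values were seen.

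Few cell division genes passed. Of 34 genes of DNA replication and entry into S phase, 31 were above 0, 1 passed (5 with the block, and 2 without double knockdown replicate 3) and the median was 0.12, with 0.05 without Yap siRNA replicate 3 to 0.24 without Wwtr1 siRNA replicate 3. Tyms, thymidylate synthase, was 639, 834 and 787 with Yap siRNA and 515, 472 and 489 with Wwtr1 siRNA (log2 difference 0.60, SE 0.14, limma adjusted p 0.0189), and lost its call without Wwtr1 siRNA replicates 2 or 3, or Yap siRNA replicates 2 or 3 (limma adjusted p 0.058 to 0.0743). Of 35 mitosis genes, 0 passed with limma (2 under an unadjusted p of 0.05, 3 higher with the block, 0 with edgeR and 1 with DESeq2), and 1 passed higher without Wwtr1 siRNA replicate 3 or Yap siRNA replicate 1. The D-type cyclin gene Ccnd1, which starts the cycle, was 4662, 4509.7 and 3879.6 with Yap siRNA against 6339, 5837 and 6256 with Wwtr1 siRNA (log2 difference -0.50, SE 0.11, limma adjusted p 0.0159) against 3417, 2748 and 2544 with negative siRNA, and lost its call without Wwtr1 siRNA replicates 1 or 3, or Yap siRNA replicate 3 (limma adjusted p 0.0521 to 0.0554). Ccnd1 and Sesn2 were the 2 of 23 D-type cyclin, cell cycle inhibitor and p53 genes that passed (8 lower and 2 higher with the block, and 1 lower without Wwtr1 siRNA replicates 1 or 3 or Yap siRNA replicate 3). Sesn2, a p53 target that restrains mTORC1, passed lower at 3709, 3396 and 3474 with Yap siRNA against 4324, 4531 and 4343 with Wwtr1 siRNA (log2 difference -0.32, SE 0.058, limma adjusted p 0.00701).

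The remaining lists held few calls. Of 25 fibroblast and epicardial transcription factors, Gata4 passed (6 higher and 1 lower with the block, and 2 higher without Wwtr1 siRNA replicate 1 or double knockdown replicates 2 or 3), at 9481, 9428 and 10009 with Yap siRNA and 6558, 6903 and 6829 with Wwtr1 siRNA (log2 difference 0.51, SE 0.063, limma adjusted p 0.000982). Of 17 genes of angiotensin, endothelin and other vasoactive signalling, 2 passed lower (2 lower and 1 higher with the block), Ece1, which makes endothelin (log2 difference -0.48, limma adjusted p 0.00785), and the adrenergic receptor Adra1b (-1.15, limma adjusted p 0.0113), which lost its call without Wwtr1 siRNA replicate 2 (limma adjusted p 0.0555). Of 20 genes on a list of Nrf2 targets with Nrf2 and Keap1 themselves (5 lower with the block, and 2 and 3 without double knockdown replicates 2 and 3), Txnrd1, which reduces thioredoxin, passed lower at 3039, 3183 and 3468 with Yap siRNA against 4478, 4644 and 4909 with Wwtr1 siRNA (log2 difference -0.54, SE 0.083, limma adjusted p 0.00351). Of 31 genes of oxidative phosphorylation, subunits with Cycs and the coactivator Ppargc1a, Ndufb5 passed higher (2 higher and 3 lower with the block, log2 difference 0.39, SE 0.10, limma adjusted p 0.0404) and lost its call without Wwtr1 siRNA replicates 1, 2 or 3, or Yap siRNA replicates 1 or 3, or negative siRNA replicates 1, 2 or 3, or double knockdown replicate 2 (limma adjusted p 0.0511 to 0.139), and with the block on all 12 libraries (limma adjusted p 0.054) or no trend in the variance (limma adjusted p 0.0688). In the same list 1 and 2 passed lower without double knockdown replicates 2 and 3. None of 21 complement genes passed (1 under an unadjusted p of 0.05, 2 higher with the block, 0 with edgeR and 1 with DESeq2), with a median of 0.20 (0.07 without Yap siRNA replicate 1 to 0.55 without Yap siRNA replicate 3), and 1 passed higher without Wwtr1 siRNA replicate 2 or double knockdown replicate 3.

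**Figure D5:**
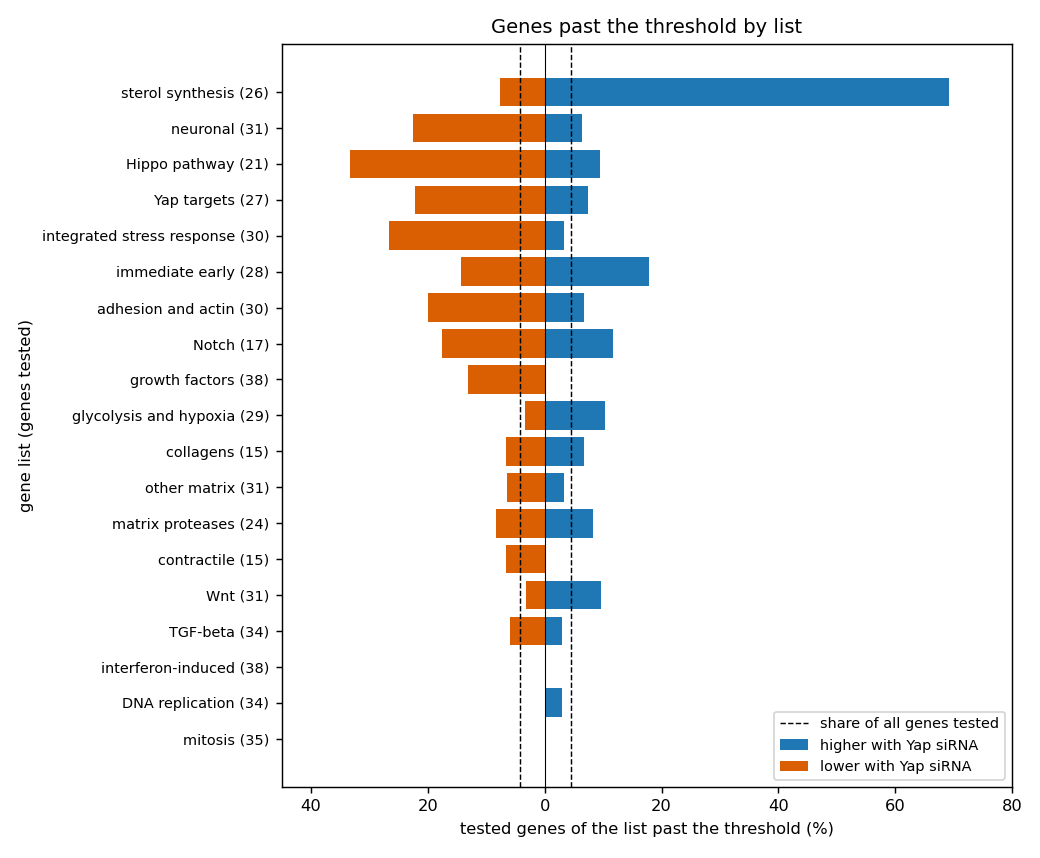
Share of tested genes that passed in 19 gene lists (number tested in brackets), with genes higher with Yap siRNA to the right in blue and lower to the left in orange, and dashed lines at the share of all genes tested in each direction (4.57% and 4.22%). Sterol synthesis reaches furthest right with 18 of 26 genes, Hippo pathway genes furthest left with 7 of 21, and the interferon and mitosis rows are empty.

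The labelled cell type was checked by markers. All 12 fibroblast markers were listed, and their summed level was 3748780 to 3902730 normalized counts with Yap siRNA and 3049610 to 3280960 with Wwtr1 siRNA, against 3049390 to 3542270 with negative siRNA. The groups did not overlap in this sum, which holds Col1a1, Col1a2, Col3a1 and Postn themselves, and its part in the collagen and matrix values was not tested. The 17 cardiomyocyte markers were listed too, with a sum of 51638 to 96458 in the 6 libraries, and sums of different lists are not compared. Of the fibroblast markers Postn and Col3a1 passed higher and Pdgfrb lower, as given above (6 and 3 with the block). In the fits without 1 library, 1 of them passed higher without negative siRNA replicate 2, Wwtr1 siRNA replicates 2 or 3 or any Yap siRNA library. None of 17 cardiomyocyte markers and none of 9 mesothelial markers passed (1 and 0 under an unadjusted p of 0.05, 5 and 1 with the block, 0 and 0 with edgeR, 1 and 0 with DESeq2), though 1 cardiomyocyte marker passed higher without negative siRNA replicate 3 or double knockdown replicate 3. Of 14 endothelial markers (3 higher and 2 lower with the block, and 2 higher without double knockdown replicate 3), Eng, a TGF-beta coreceptor, passed higher at 33239, 27647 and 33929.7 with Yap siRNA against 20602, 19016 and 24084 with Wwtr1 siRNA (log2 difference 0.57, SE 0.11, limma adjusted p 0.00779), and Flt1, a VEGF receptor, lower at 1854, 2565 and 2447 with Yap siRNA against 4076, 4318 and 4585 with Wwtr1 siRNA (log2 difference -0.93, SE 0.22, limma adjusted p 0.0236). Flt1 lost its call without Wwtr1 siRNA replicates 1, 2 or 3, or Yap siRNA replicate 1 (limma adjusted p 0.0521 to 0.0941), and with no trend in the variance (limma adjusted p 0.0501). The endothelial markers summed to 31802 to 38063 with Yap siRNA and 24889 to 30198 with Wwtr1 siRNA, without overlap, and that sum includes Eng and Flt1.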

How the data were processed

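RNA of 12 libraries (3 each of negative, Yap, Wwtr1 and Yap+Wwtr1 siRNA) was sequenced. The submitters' processing notes name Trim Galore 0.6.5 and HISAT2 2, and the methods name the rn6 genome, StringTie and DESeq2. The deposited values are a signal: gene counts that the authors divided by a size factor for each library. Whether counting used strand is not given in the sources used here. Each value was a whole multiple of 1 read of its library (tolerance 0.01), so totals could be recovered, 33.9 to 41.1 M reads over the 12 libraries. These exceed the depth the study states, so whether the unit is a read or a mate is uncertain, and intervals cover the spread between libraries only. The authors' files of fold changes and p-values were not used.

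Values were taken as log2(normalized count + 1), since a count test is not the main test for normalized values, and this scale understates changes of low genes. Genes with a mean of at least 10 over the 12 libraries were tested with limma 3.58.1 (R 4.3.3), with moderated variance and a trend on mean level, all 12 libraries in 1 fit and no block. The contrast was Yap siRNA minus Wwtr1 siRNA, two-sided, with Benjamini-Hochberg adjustment over 11871 genes. The same fit was also run on simulated counts, and no result given here rests on that run. The members and the 39 gene lists were chosen with earlier results of these data known. Named were both targets, Vgf, Celf3, Padi3 and Steap4, the 12 largest differences in each direction among genes that passed with a mean of at least 100 and no overlap, and up to 4 passing members of each list with the smallest adjusted p. Other names are marked as chosen after their values were seen, as were Rest, Acta2, Atf4, Runx1, Runx2, Gbp2, Psmb9 and Mx2.

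The study's methods state separate litters for replicates, while no label ties a replicate number to a litter. Deviations of same-numbered libraries were compared as a check of pairing. All 9 same-numbered correlations between the negative, Yap and Wwtr1 siRNA groups were 0.104 to 0.276 over all genes (1 was 0.0885 over the 5000 genes of highest mean). Different-numbered libraries of these groups had -0.171 to 0.0182 over all genes. Over the 5000 genes, negative siRNA replicate 2 had 0.399 with Wwtr1 siRNA replicate 1 and 0.394 with Wwtr1 siRNA replicate 2. The numbers were taken to pair these groups, less clearly over the 5000 genes. The double knockdown did not pair (-0.127 to 0.180), so the block on replicate number was fitted on the 9 other libraries, and its value is given where it changes a call or moves a count by over 1.5 times. Alternatives were other pseudocounts, filters, scalings and sets of libraries, edgeR 4.0.16 and DESeq2 1.42.0 on recovered reads, and leaving out each library. The 250 bases before gene starts came from RefSeq. Some single genes that the list counts include are not reported here.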

Additional observations from a re-analysis of the deposited data

Results flagged for a closer look

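The double knockdown lies outside the comparison and held 1 signal above its controls that bears on a gene named here. Aqp1 had a mean of 5109 normalized counts with both siRNAs, and the lowest of those 3 libraries (4997) was above the highest library of any other group (4718, with Yap siRNA) and above the highest negative siRNA library (1997). The difference between the double knockdown and Yap siRNA was not tested.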

How the results depend on the processing

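The count of 1044 genes between the siRNAs and the 110 over 2-fold moved with the replicate block and with single libraries. On all 12 libraries the block gave 1253 genes and 111 over 2-fold. Without the double knockdown the counts were 1319 and 134 with no block and 2680 and 173 with it. With the 6 compared libraries alone they were 942 and 119 with no block and 2161 and 166 with it. Leaving out 1 library gave 434 (Wwtr1 siRNA replicate 2) to 1409 (double knockdown replicate 3) genes and 75 (Wwtr1 siRNA replicate 3) to 138 (double knockdown replicate 3) over 2-fold. Other pseudocounts, filters, scalings, edgeR and DESeq2 kept the count within 1.5 times, at 816 (no trend) to 1542 (DESeq2). Of 122 named genes that passed, 0 to 39 lost their calls when 1 library was left out, most without Wwtr1 siRNA replicate 3. Of 78 counts over the gene lists, 0 to 3 moved by over 1.5 times with other pseudocounts or scalings, no filter or edgeR, 24 with DESeq2, 12 with no trend, 5 with a mean of at least 100, 18 with the 6 compared libraries alone, 23 without the double knockdown, 19 to 57 with the block and 2 to 25 with 1 library left out. The limits of these data are 3 libraries a group and the spread between them. Only genes that did not pass reversed. Col1a1 was -0.0012 with TMM scaling, -0.00054 with upper-quartile scaling and -0.0011 with edgeR. With 1 library left out, Col1a1 ran from -0.036 to 0.026, Vgll4 from -0.086 to 0.089, Isg15 from -1.06 to 0.25, Mx2 from -1.20 to 0.12 and Tead1 from -0.32 to 0.050, each on the log2 scale. The causes were not tested.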
